A study of Mus musculus with 5 samples.

Results

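The proteasome genes described here are the subunits, activators, inhibitor and assembly factors of the cell's main protein-degrading machine, measured in 2 progenitor populations of mouse bone marrow. They were taken by gene symbol, as every gene whose symbol starts with Psma, Psmb, Psmc, Psmd, Psme, Psmf or Psmg and a digit. The inducible catalytic subunits Psmb8, Psmb9 and Psmb10 were left out. The rule gave 46 genes on 99 probe sets (groups of short probes that read the same transcript), of 18193 genes with a probe set of their own and 45037 probe sets in all. Psmc3ip, a factor of meiotic recombination, and Psme3ip1, a binding partner of Psme3, met the rule by name and are not proteasome subunits. One further probe set is annotated to both Psme2 and Psme2b and was left out, so the PA28 beta subunit is not described.

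The arrays came from wild-type C57BL/6 mice, with 3 of common dendritic cell progenitors (CDP) and 2 of common myeloid progenitors (CMP). CDP, which give rise to dendritic cells, were sorted as lineage-negative, Sca-1-negative cells with intermediate c-Kit that carried CD34, Flk2 and CD115 and lacked CD16 and CD32. CMP, an earlier stage that can form all myeloid lineages, were sorted with high c-Kit, with CD34 and Flk2, and without Sca-1, CD11c, CD16, CD32 and CD115. RNA of 10000 to 30000 cells, sorted in succession for purity, was amplified before hybridization to Affymetrix mouse whole-genome arrays. No treatment or gene alteration is named for either group. Ages are not given, and nothing in the labels tells whether each array had animals or pools of its own. The p-values therefore reflect only how these 5 samples scatter, and that scatter may be technical.

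The proteasome degrades proteins that carry chains of ubiquitin. Its core particle is a barrel of stacked rings, in which outer alpha rings gate the entrance and inner beta rings hold the cutting sites. A regulatory particle on the end of the barrel recognises ubiquitin, removes it and unfolds the substrate with a ring of ATPases. Other activators open the barrel without ATP, and dedicated chaperones guide its assembly. In dendritic cells the proteasome also supplies the peptides that MHC class I molecules display.

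The RefSeq promoter table (GRCm38.p6) held 41 promoters for 38 of the 46 genes, each from 250 bases before to 50 bases after the transcript start. The letters CCGGAAG on either strand, the core bound by many ETS factors, were in 17 of these 41 promoters, or 41.5%, against 8.86% of all 32851 promoters of the same length and 20.4% of the 8890 promoters of tested genes. This motif was picked after the promoters had been looked at. TGACNNNGC, the core of the antioxidant response element through which Nfe2l1 acts on proteasome genes, was in 14.6% of the member promoters, 12.4% of all and 14.4% of those of tested genes. CCAAT was in 36.6%, 37.4% and 38.0%. GC content was 58.2% in the member promoters and 61.0% in those of tested genes. The 250 bases before the start follow for 5 genes, with matches to TGACNNNGC or CCGGAAG on either strand in capitals. Psmb5 and Psmb6 are shown as catalytic subunits and Psmd9 as the gene with the largest difference, each holding the first motif, and Psme4, the gene with the smallest adjusted p, and Psmd11, the gene with the largest difference on any single probe set, each hold the second.
Psmb5 (chr14:54617996-54618245, minus strand): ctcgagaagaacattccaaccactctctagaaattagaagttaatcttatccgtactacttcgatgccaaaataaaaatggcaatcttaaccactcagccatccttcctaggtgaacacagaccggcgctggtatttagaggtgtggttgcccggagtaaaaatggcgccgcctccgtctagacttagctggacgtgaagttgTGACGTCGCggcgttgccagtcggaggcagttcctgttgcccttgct
Psmb6 (chr11:70525107-70525356, plus strand): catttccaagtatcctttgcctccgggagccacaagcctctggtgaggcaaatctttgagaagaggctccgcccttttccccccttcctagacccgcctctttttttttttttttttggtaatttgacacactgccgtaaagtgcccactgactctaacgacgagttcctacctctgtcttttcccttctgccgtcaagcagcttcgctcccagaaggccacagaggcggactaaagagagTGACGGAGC
Psmd9 (chr5:123227940-123228189, plus strand): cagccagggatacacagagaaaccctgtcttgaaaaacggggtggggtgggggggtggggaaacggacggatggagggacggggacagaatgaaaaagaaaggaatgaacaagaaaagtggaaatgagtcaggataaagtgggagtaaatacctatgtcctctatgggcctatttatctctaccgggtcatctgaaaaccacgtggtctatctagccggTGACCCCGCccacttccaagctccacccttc
Psme4 (chr11:30771525-30771774, plus strand): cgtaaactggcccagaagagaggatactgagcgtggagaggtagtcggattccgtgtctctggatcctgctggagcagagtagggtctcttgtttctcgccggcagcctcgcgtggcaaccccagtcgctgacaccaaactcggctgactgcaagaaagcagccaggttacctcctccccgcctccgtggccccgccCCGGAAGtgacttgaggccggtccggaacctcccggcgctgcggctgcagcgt
Psmd11 (chr11:80428365-80428614, plus strand): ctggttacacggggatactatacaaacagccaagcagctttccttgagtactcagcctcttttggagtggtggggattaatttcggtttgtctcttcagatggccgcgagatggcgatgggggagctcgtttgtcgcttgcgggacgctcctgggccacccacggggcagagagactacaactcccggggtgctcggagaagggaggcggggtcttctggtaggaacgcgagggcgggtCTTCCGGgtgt
A match is a run of letters and not a shown binding site.

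The label of the arrays was checked against markers. Kit was lower in CDP (limma, adjusted p = 0.0318), and Itgax was detected on the CDP arrays alone (adjusted p = 0.0155). Both genes listed for the dendritic lineage were detected on all 5 arrays and were higher in CDP without overlap. Irf8 (limma, adjusted p = 0.0318) stood at 15.07 to 15.26 in CDP against 12.22 and 12.89 in CMP. Id2 (adjusted p = 0.0155) stood at 9.37 to 9.99 in CDP against 5.85 and 5.07 in CMP. Csf1r, which encodes CD115, was at 12.94 to 13.16 in CDP and also at 11.75 and 11.03 in CMP, which were sorted without that protein (adjusted p = 0.0966). Fcgr2b, which encodes CD32, was at 8.72 to 10.25 on all arrays, although both populations were sorted without it. Of 7 genes of mature dendritic cells or macrophages, Adgre1 was detected on the 3 CDP arrays (5.41 to 5.82) and not in CMP, and the other 6 on no array. The transcripts of 6 mature neutrophil genes (S100a8, S100a9, Ngp, Camp, Ltf and Lcn2) stood at 10.25 to 12.52 on CDP 2 and at most at 3.74 on the other arrays. None of 4 erythroid and 4 T cell genes was detected at log2 5 on any array. Of 4 B cell genes Cd79b was detected on all arrays and the others on none. In such mixed RNA, fewer cells of a type and less RNA per cell cannot be told apart. The 5′ beta-actin control was low on CDP 1 (6.54) and CMP 1 (6.71) and at 10.52 to 12.97 on the others. The Gapdh controls did not split the arrays this way: their gap between 3′ and 5′ signal was widest on CDP 3 (6.60), against 4.64 on CDP 1, 4.71 on CMP 1, 3.88 on CDP 2 and 3.22 on CMP 2. The division by 5′ signal thus rests on beta-actin alone, and CDP 1 and CMP 1 are also the arrays numbered 1 in each group. Every member was therefore also compared within each kind of array, that is CDP 1 with CMP 1 (the arrays low in 5′ signal), and the mean of CDP 2 and CDP 3 with CMP 2.

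No proteasome gene differed between CDP and CMP past the threshold. Of the 46 genes, 45 were tested, on 75 probe sets that reached log2 5 on at least 2 arrays. The exception was Psmb11, the beta subunit of thymic epithelium, which was at 2.26, the lowest value of the table, on all 5 arrays. At an adjusted p under 0.05 in limma, 0 of the 45 genes rose and 0 fell, where 1.67% of all 8449 tested genes rose and 0.473% fell, together 2.14%. At an unadjusted p under 0.05 the count was also 0, against 17.1% of all tested genes. The smallest adjusted p among the 45 was 0.367 (Psme4). Each gene is represented by the brightest of its tested probe sets. By probe set, 0 of 75 passed, against 1.73% of all 16552, and 3 of 75 had an unadjusted p under 0.05, against 15.9%.

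The differences between CDP and CMP were small for most members, but the arrays fix them only loosely. CDP minus CMP ran from -1.15 (Psmd7) to 1.24 (Psmd9) in log2 units, and 3 of 45 genes lay beyond 1 unit (a 2-fold difference), against 19% of all tested genes. The median was 0.16, against 0.17 over all tested genes. Since quantile normalization moves the median over all probe sets from 0.12 to 9.12e-05, the medians of groups are given below relative to 0.17, which for all 45 is -0.01. The difference was above 0 for 27 genes, or 60%, and below 0 for 18, and 60.6% of all tested genes were above 0. The 95% interval of the difference lay within 1 log2 unit of 0 for 8 of 45 genes, against 11.3% of all tested genes. These were Psma3, Psma4, Psma5, Psma6, Psmc4, Psmd6, Psmd14 and Psme3, each on its brightest probe set. For the other 37 the interval allowed a difference of 2-fold or more, and over all 45 genes its median half-width was 0.96. A dimmer tested probe set of Psma5, Psma6, Psmc4, Psmd6 and Psme3 also allowed a 2-fold difference, with an interval from -3.05 to -0.09 for Psme3. The smallest difference called for any gene was 1.86, larger than that of any member.

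**Figure D1:**
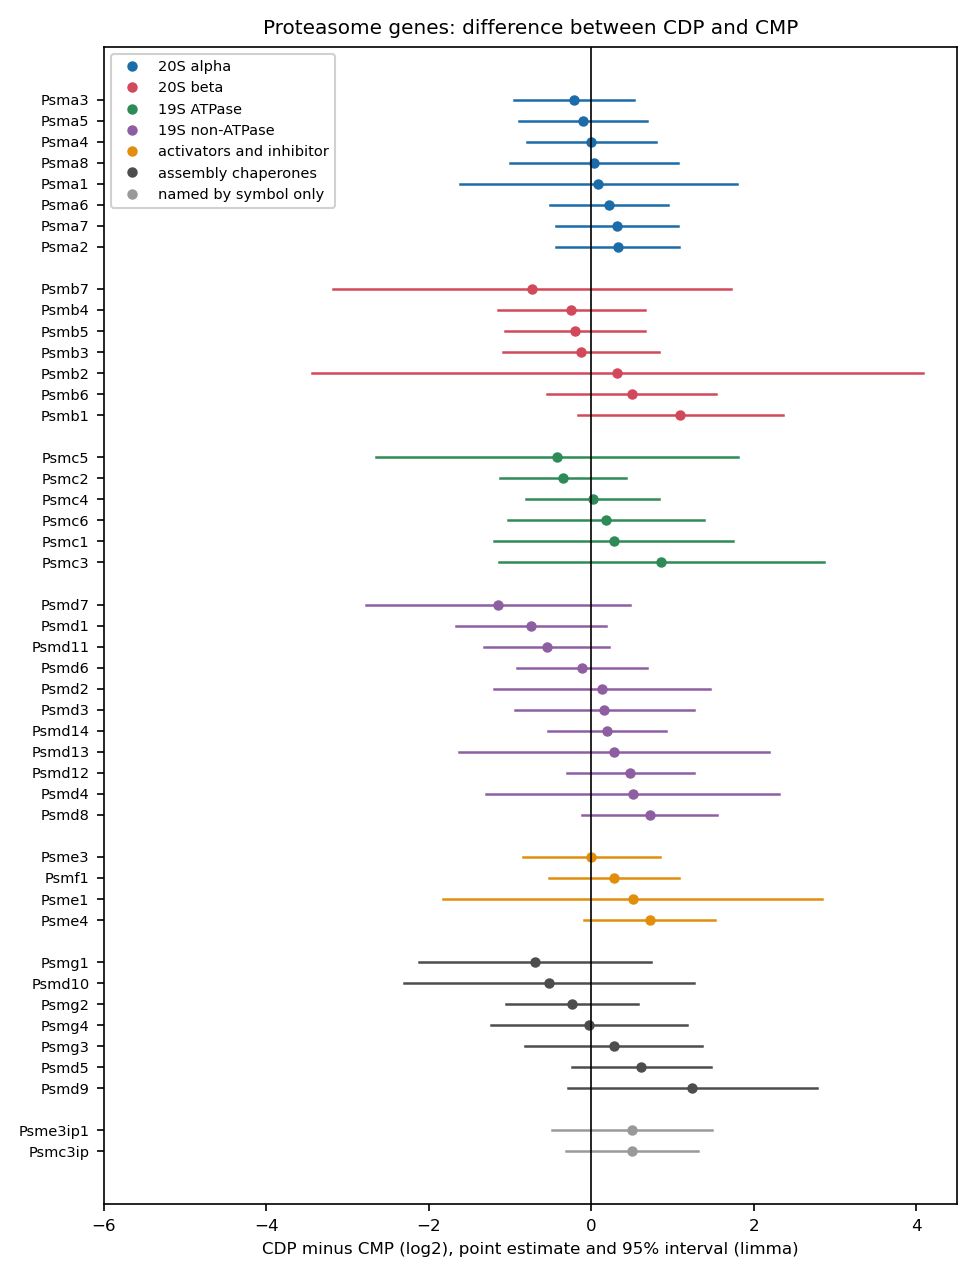
CDP minus CMP in log2 units for the 45 tested proteasome genes, ordered by size within each role, with points for the limma estimate and lines for its 95% interval (3 CDP and 2 CMP arrays). The intervals of all 45 genes include 0, and the widest are those of Psmb2 and Psmb7.

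All CDP arrays lay above all CMP arrays for 9 of 45 genes, against 23.7% of all tested genes. They were Psma2, Psma6, Psma7, Psmd5, Psmd8, Psmd12, Psmd14, Psme4 and Psmc3ip. All CDP arrays lay below all CMP arrays for Psmc2, Psmd1 and Psmd11, or 3 of 45, against 10.8%. Together these 12 of 45 compare with 34.5% of all tested genes. Both shares, 20% and 6.67%, were near the background for a list of 45, and the gap was not tested. The other 33 genes overlapped between the groups.

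The alpha subunits of the core particle, which form its outer rings, were the steadiest group by the median of their brightest probe sets. Their median range over the 5 arrays was 0.51 log2 units, against 1.30 over all tested genes. Psma1 was an exception with a range of 1.96, and dimmer probe sets of Psma1, Psma5 and Psma6 ranged by up to 1.56, 1.37 and 1.34. Psma2 was at 11.36, 11.66 and 11.75 on CDP 1 to 3 and at 11.31 and 11.23 on CMP 1 and 2, the highest difference of the 8 at 0.32 ± 0.31 (SE, limma adjusted p = 0.691). Its groups did not overlap, although CDP 1 and CMP 1 were only 0.05 apart. Psma3 was at 13.14, 13.22 and 13.38 in CDP and at 13.35 and 13.57 in CMP, the lowest difference at -0.21 ± 0.30 (adjusted p = 0.80). The groups overlapped, since CDP 3 exceeded CMP 1. The other 6, Psma1, Psma4, Psma5, Psma6, Psma7 and Psma8, lay between -0.11 and 0.31. The median of the 8 was 0.06, or -0.11 relative to all genes. Psma8, known as the alpha subunit of the testis, read 5.82 to 6.68 on the 5 arrays. Cross-reaction of its probes with the transcript of its close copy Psma7 was not tested.

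Among the beta subunits, which hold the cutting sites, 0 of 7 passed the test, with 3 above 0 and 4 below. Over all tested genes 2.14% passed and 60.6% were above 0, and 7 genes are too few to be told apart from these shares. Psmb5, which carries the chymotrypsin-like activity, was at 11.32, 11.27 and 11.50 in CDP and at 11.20 and 11.93 in CMP. The CDP arrays fell between the 2 CMP arrays, and the difference was -0.20 ± 0.35 (adjusted p = 0.843). Psmb6, the caspase-like subunit, was at 11.25, 11.82 and 12.20 against 10.89 and 11.63 (0.50 ± 0.43, adjusted p = 0.647). It was higher in CDP within both kinds of array, by 0.35 and 0.38, while the groups overlapped. Psmb7, the trypsin-like subunit, was at 9.21, 11.33 and 10.87 in CDP and at 9.72 and 12.68 in CMP (-0.73 ± 1.01, adjusted p = 0.796). The lowest values were on the arrays low in 5′ signal and the highest was on CMP 2, without which the difference turns to 0.75.

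Psmb1, a structural beta subunit, had the highest difference of the 7. It was at 9.37, 10.40 and 10.83 in CDP and at 8.78 and 9.44 in CMP, and CDP 1 fell just below CMP 2. The difference of 1.09 ± 0.52 did not pass (limma, adjusted p = 0.379), and it was 0.59 from CDP 1 to CMP 1 and 1.18 between the other arrays. Psmb2, also structural, was at 5.55 on CDP 1 and 6.14 on CMP 1, but at 9.88, 9.20 and 9.64 on CDP 2, CDP 3 and CMP 2. Its values thus split by kind of array and not by population, and its interval runs from -3.44 to 4.08. Psmb3 and Psmb4 were at -0.13 and -0.25. All 7 beta subunits had a median of -0.13, or -0.30 relative to all genes.

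The immunoproteasome subunits Psmb8, Psmb9 and Psmb10, which replace the catalytic subunits in immune cells, were detected on all arrays of both progenitors. Psmb8 was at 7.70, 10.05 and 9.30 in CDP and at 8.14 and 10.51 in CMP. Psmb9 was at 8.53, 10.23 and 9.60 against 8.09 and 10.94, and Psmb10 at 7.92, 10.31 and 10.25 against 8.48 and 10.82. In all 3 the arrays low in 5′ signal were the lowest and CMP 2 was the highest on these probe sets. A second probe set of Psmb8 did not follow, at 7.35, 8.02 and 8.76 in CDP and 8.06 and 8.18 in CMP, a difference of -0.08. Differences were -0.31 ± 0.93, -0.06 ± 0.92 and -0.15 ± 0.98, and none passed (limma, smallest adjusted p = 0.916). Each turned positive without CMP 2, at 0.88, 1.37 and 1.02.

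The ATPases of the regulatory particle, which unfold the substrate, gave 0 calls among 6, where 2.14% of all tested genes were called. With so few genes, 0 cannot be told apart from that share. Psmc3 was at 11.01, 12.92 and 12.85 in CDP and at 10.40 and 12.40 in CMP, the highest difference of the group at 0.86 ± 0.82 (adjusted p = 0.685). It was 0.62 and 0.48 within the 2 kinds of array, and without CMP 1 it turned to -0.14. Psmc5 was at 9.06, 10.62 and 9.72 against 8.75 and 11.69, the lowest at -0.42 ± 0.92 (adjusted p = 0.880). CMP held both its lowest and its highest array, and without CMP 2 the difference turned to 1.05. Psmc2 lay between 13.05 and 13.46 in CDP and at 13.49 and 13.59 in CMP, so that its groups did not overlap, by a margin of hundredths (-0.35 ± 0.32, adjusted p = 0.666). Psmc1, Psmc4 and Psmc6 were at 0.27, 0.01 and 0.18. The ATPases had a median of -0.07 relative to all genes.

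The non-ATPase subunits of the regulatory particle, which bind ubiquitin, remove it and hold the lid together, ran from -1.15 to 0.72. Psmd7, the inactive partner of the deubiquitinase Psmd14, was at 7.62, 8.57 and 7.81 in CDP and at 8.12 and 10.19 in CMP. It was lower in CDP within both kinds of array, at -0.50 and -2.0, although CDP 2 exceeded CMP 1 (-1.15 ± 0.67, adjusted p = 0.469). Psmd1, a scaffold of the base, was at 10.05, 10.16 and 9.77 against 10.32 and 11.15, with every CDP array below every CMP array (-0.74 ± 0.38, adjusted p = 0.416). Psmd8, a lid subunit, was at 9.50, 9.82 and 10.04 against 8.86 and 9.27. Its groups did not overlap, and its difference of 0.72 ± 0.34 (adjusted p = 0.379) was nearly the same within the kinds of array, at 0.63 and 0.66. Psmd14 itself was at 12.39, 12.38 and 12.55 against 12.32 and 12.19, with an interval from -0.54 to 0.91. The ubiquitin receptor Psmd4 was at 0.51, and Psmd2, the other large scaffold of the base, at 0.13. Psmd3, Psmd6, Psmd12 and Psmd13 were at 0.16, -0.12, 0.48 and 0.28. For all 11 the median was -0.01 relative to all genes.

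Psmd11, a lid subunit whose level is known to affect proteasome assembly in stem cells, gave different readings on its 4 tested probe sets. On the probe set with the highest mean it was at 10.34, 10.07 and 10.09 in CDP and at 10.89 and 10.55 in CMP (-0.55 ± 0.32, adjusted p = 0.464). On another it was at 9.36, 8.82 and 9.16 against 11.28 and 10.50, the largest difference of any member probe set at -1.78 ± 0.38 (limma, adjusted p = 0.0965). On both, every CDP array was below every CMP array. The second was lower in CDP within both kinds of array, at -1.92 and -1.51. With the kind of array as a block it passed the threshold (-1.68 ± 0.28, adjusted p = 0.0200), where 8.69% of all tested probe sets passed in the same fit. It was the only member probe set to do so. The other 2 probe sets were at -0.06 and -0.02, and the name of the brightest probe set carries the manufacturer's mark for probes shared by several transcripts.

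Among the activators and the inhibitor, Psme4 had the smallest adjusted p in the fit without a block. Psme4 encodes PA200, a nuclear activator that opens the barrel without ATP. It was at 10.61, 10.27 and 10.68 in CDP and at 10.00 and 9.62 in CMP, with no overlap (0.72 ± 0.33, adjusted p = 0.367). A second probe set was at 9.92, 10.05 and 10.25 against 9.24 and 9.22, at 0.84 ± 0.30 (adjusted p = 0.260). On both, CDP was higher within each kind of array, by 0.62 and 0.86 on the first and by 0.67 and 0.92 on the second. The other 2 tested probe sets did not follow, at 0.23 and -0.18. The brightest carries the mark for shared probes, and the second does not.

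Psme3, the nuclear PA28 gamma activator, was at 9.21, 8.67 and 9.11 in CDP and at 9.21 and 8.79 in CMP on its probe set with the highest mean. The groups coincided, at a difference of 0.00 with an interval from -0.84 to 0.84. Its other tested probe set was at 9.33, 7.39 and 7.80 against 9.78 and 9.71, or -1.57 ± 0.61 (adjusted p = 0.285), with no overlap. Most of that difference was outside the arrays low in 5′ signal, at -2.11 against -0.45 within them. Psme1, the PA28 alpha subunit induced by interferon, was at 8.38, 10.66 and 10.38 against 8.07 and 10.53 (0.51 ± 0.96, adjusted p = 0.859). Its values split by kind of array, and without CMP 1 the difference turned to -0.72. Psmf1, the inhibitor PI31, was at 8.52, 8.35 and 8.58 against 8.48 and 7.93 (0.28 ± 0.33, adjusted p = 0.755), with overlap. As a group the 4 had a median of 0.22 relative to all genes.

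The assembly chaperones moved both ways without a call, where 2.14% of all tested genes were called. Psmd9, which helps to build the ATPase ring, had the largest difference of any member. It was at 5.22, 6.28 and 6.55 in CDP and at 3.96 and 5.59 in CMP, where CMP 1 lay below the detection level of log2 5. CDP 1 fell below CMP 2, and the difference of 1.24 ± 0.63 did not pass (adjusted p = 0.411). Psmd5, a second chaperone of that ring, was at 8.69, 8.86 and 9.33 against 8.16 and 8.53, with no overlap (0.61 ± 0.35, adjusted p = 0.464). Psmg1, which with Psmg2 builds the alpha ring, was at 7.33, 8.72 and 8.60 against 8.31 and 9.51. It had the lowest difference of the group, at -0.69 ± 0.59 (adjusted p = 0.640), and was lower in CDP within both kinds of array, at -0.97 and -0.85. Psmd10, or gankyrin, was at 6.45, 8.25 and 7.41 against 6.96 and 8.82 (-0.52 ± 0.73, adjusted p = 0.798), and turned to 0.41 without CMP 2. Psmg2 and Psmg4 were at -0.24 and -0.03. Psmg3 was at 0.27 on the probe set with the highest mean and at -1.04 on another, neither past the threshold (adjusted p = 0.830 and 0.348). The median of the 7 was -0.20 relative to all genes.

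**Figure D2:**
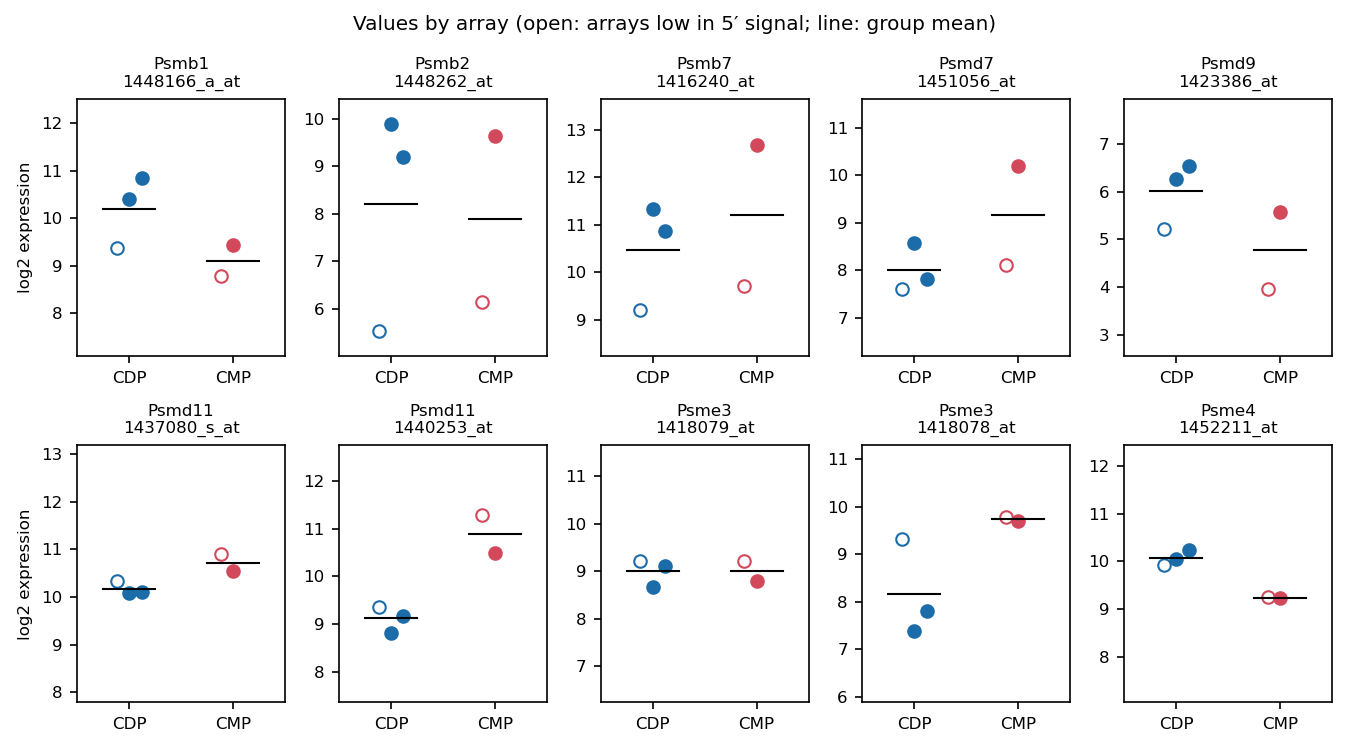
Deposited log2 values on each of the 5 arrays for 10 probe sets, with blue points for CDP, red points for CMP, open points for the arrays low in 5′ signal and lines for group means. All panels span the same number of log2 units at different origins, and Psmb2 shows both low arrays near 6 and the other 3 above 9.

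The 2 genes that met the rule by name alone were close to each other. Psmc3ip was at 10.38, 10.11 and 10.39 in CDP and at 10.07 and 9.52 in CMP, without overlap (0.50 ± 0.33, adjusted p = 0.542). Psme3ip1 was at 8.60, 9.20 and 8.99 against 7.99 and 8.88 (0.50 ± 0.41, adjusted p = 0.625), with overlap. Without them the median of the other 43 genes was -0.04 relative to all genes.

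More members separated CDP 1 and CMP 1, low in 5′ beta-actin signal, from the other arrays than separated the populations. Both arrays low in 5′ signal lay below all 3 others for 20 of 45 genes, or 44.4%, against 25.5% of all tested genes. They lay above for 3 of 45, or 6.67%, against 15.9%. These 23 genes compare with the 12 that separated CDP from CMP. Over all tested genes the shares were also higher by kind of array (25.5% and 15.9%) than by population (23.7% with CDP above and 10.8% with CDP below). By probe set the shares were 46.7% below and 6.67% above, against 23.1% and 17.4% of all tested probe sets. The median of the other 3 arrays minus these 2 was 0.38 over the members and 0.13 over all genes. By role, both low arrays were the lowest in 5 of 7 assembly chaperones, 4 of 6 ATPases, 4 of 7 beta subunits, 4 of 11 non-ATPase subunits, 1 of 4 activators and inhibitor and 1 of 8 alpha subunits. The reverse was seen in Psmb4, Psmc6 and Psme3. The part of RNA quality in these differences was not tested.

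**Figure D3:**
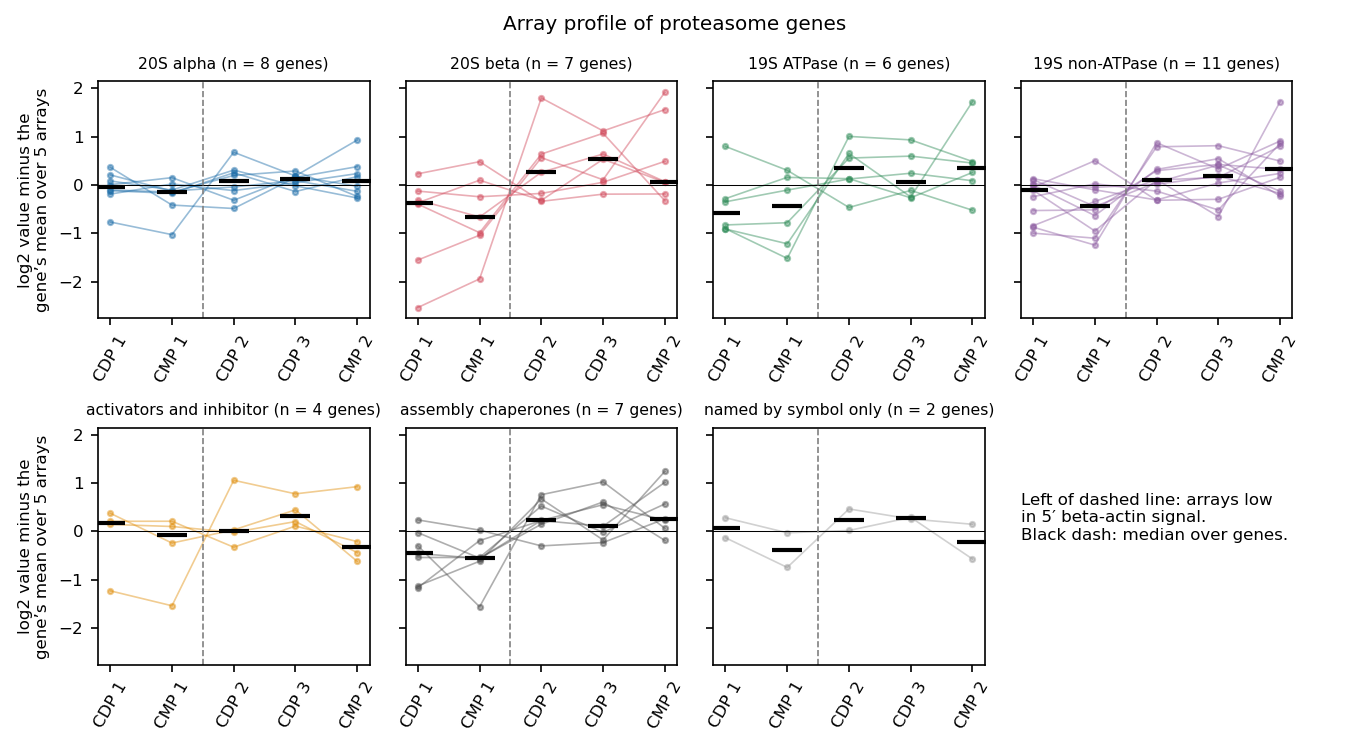
Each line is a proteasome gene, given as its log2 value on each array minus its mean over the 5 arrays, with CDP 1 and CMP 1, the arrays low in 5′ signal, left of the dashed line and black dashes for medians. Medians of alpha and beta subunits, ATPases, non-ATPase subunits and assembly chaperones lie below 0 on both arrays on the left and above 0 on the 3 on the right.

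Set against its own mean over the 5 arrays, the typical member stood at -0.19 on CDP 1, 0.15 on CDP 2, 0.19 on CDP 3, -0.34 on CMP 1 and 0.23 on CMP 2. In the same order, the typical gene of all those tested stood at 0.02, 0.08, 0.16, -0.18 and -0.04. CMP 1 was the lowest array for 18 of the 45 genes, or 40%, against 33.5% of all tested genes, and CDP 3 was the highest for 18, or 40%, against 25.4%. CMP 2 was the highest for 16, or 35.6%, against 21.8%. By the medians over the members, the CMP arrays were the lowest and the highest of the 5, with the CDP arrays between them. Within the arrays low in 5′ signal the median difference between CDP and CMP was 0.11, and within the others 0.04, against 0.17 and 0.13 over all tested genes. The median over the 45 genes, 0.16 and not taken relative to all genes, became -0.18 without CMP 1 and 0.41 without CMP 2. Without CDP 2, the array with neutrophil transcripts, it was 0.05, and 0 of the 45 genes were called. That fit called few probe sets at all, so this 0 says little. With the kind of array as a block, 9.76% of all tested genes were called and still 0 of the 45, where Psmd9 (adjusted p = 0.0735) and Psmg1 (adjusted p = 0.0814) came closest.

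Probe sets of the same gene were a second measure of each difference. Of the 45 genes, 20 had several tested probe sets. In 8 all of them were above 0, in 5 all were below 0, and in 7 they differed in sign. In Psmd11, Psme3, Psme4 and Psmg3 they spread over more than 1 log2 unit. Probe sets of a gene differed more widely in the gap between the kinds of array, a division that rests on beta-actin alone. In 10 of the 20 genes, the gap between the kinds of array differed by over 1 unit between probe sets. Psmb3 was at 11.48, 11.53, 12.38, 11.95 and 11.90 on CDP 1 to 3 and CMP 1 and 2 with its brighter probe set. With the dimmer one it was at 5.05, 8.95, 7.99, 6.27 and 9.09, which is low on CDP 1 and CMP 1 alone. The gap was 0.22 on the first and 3.02 on the second, and 0.38 and 1.99 on the pair for Psmc4. CDP minus CMP stayed near 0 on both probe sets of Psmb3, at -0.13 and -0.35.

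**Figure D4:**
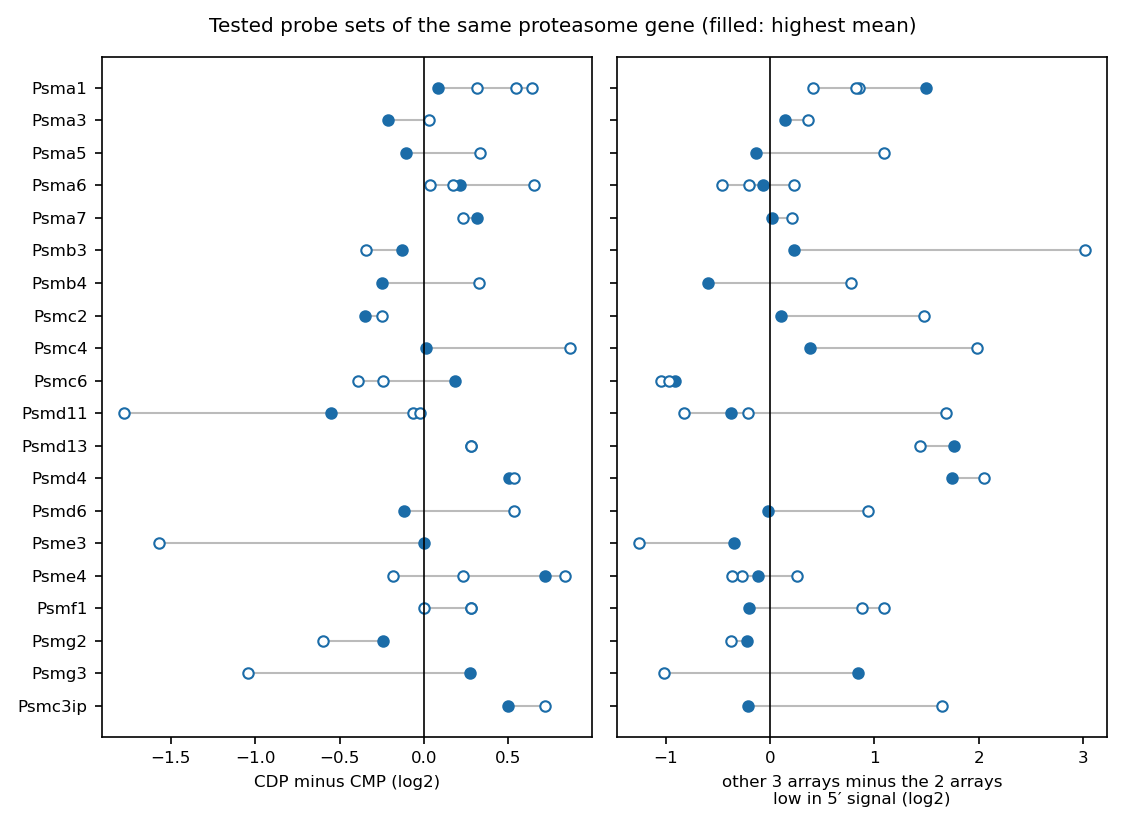
Points are the tested probe sets of the 20 genes with more than 1, filled for the probe set with the highest mean, with CDP minus CMP on the left and the other 3 arrays minus the 2 low in 5′ signal on the right, both in log2 units. The probe sets of Psmd11 and Psme3 lie apart on the left and those of Psmb3 on the right.

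The genes that work with the proteasome gave no call either in the fit without a block. Of 41 listed genes outside the rule, the immunoproteasome subunits among them, 33 were tested, with 0 higher and 0 lower in CDP (limma, smallest adjusted p = 0.175). Over all tested genes 1.67% were called higher and 0.473% lower, and 0 of 33 cannot be told apart from these shares. Most of the 33 were not followed with the kind of array as a block. Every CDP array was above every CMP array for 3 of the 33 and below for 5, where the shares over all tested genes were 23.7% and 10.8%. Nfe2l1, the transcription factor that raises proteasome genes when the proteasome is impaired, was at 7.45, 8.14 and 8.19 in CDP and at 7.73 and 8.61 in CMP (-0.24 ± 0.43, adjusted p = 0.846). Its groups overlapped. Of 12 tested shuttles and extraction factors, which bring ubiquitinated proteins to the proteasome, Rad23b had the smallest adjusted p of all 33. On its brightest probe set it was at 11.77, 10.95 and 11.01 against 12.62 and 12.48, with no overlap (-1.31 ± 0.38, adjusted p = 0.175). Its other tested probe sets were at -1.33 and -0.91 without overlap and at -0.77 with overlap, none past the threshold. Among 7 partners, the deubiquitinase Uchl5 was at -0.63 and -1.07 on its probe sets (adjusted p = 0.410 and 0.30), without overlap on either. Among 10 genes of transcription and processing, Nfe2l2, the factor of the antioxidant response, gave -1.06 and 0.15 on its brighter and dimmer probe sets (adjusted p = 0.324 and 0.901). Rad23b, Uchl5 and Nfe2l2 were picked after their values were seen. Uba6, a ubiquitin-activating enzyme, was at -0.27 on its brightest probe set (adjusted p = 0.739) and ran from -1.24 to 0.31 on its other tested ones.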

How the data were processed

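Gene expression was measured on 5 arrays, and the authors deposited log2 values made with GCRMA, per the submitters' processing notes; its version and the genome build are not given in the sources used here. GCRMA corrects background by probe sequence, normalizes quantiles and summarises each probe set. Values at the lowest level, 2.26, have no order, and the number of arrays limits the precision. A probe set's level cannot be set against another's.

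Groups came from sample titles. Gene symbols came from the platform's annotation table. Of 45037 without controls, 34945 had 1 symbol, 932 several and 9160 none. The symbols of all 46 members were found in the RefSeq table by gene identifier, and 0 differed. Probe sets with at least 2 arrays at log2 5 were tested (16552), and the CDP-minus-CMP contrast was fitted with limma 3.58.1 under R 4.3.3, 2-sided and adjusted by Benjamini-Hochberg over all of them. Values after ± are standard errors. The procedure was tested on simulated data with independent noise on each array, so that test does not cover patterns shared between arrays. Genes were named if called, extreme in their role, among the 12 largest differences, discordant between probe sets or listed beforehand, and further members were named after their values were seen. The members and lists were chosen with earlier results of these data known. Alternatives changed scaling, filter, variance model, array weights, blocks, cross-hybridizing probe sets, probe set averaging and the arrays included.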

Additional observations from a re-analysis of the deposited data

How the results depend on the processing

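No proteasome gene was called in any of the 19 alternatives, and of 512 values of the 27 genes followed, 489 kept both their sign and their side of the threshold. The smallest adjusted p among the members ran from 0.0735 to 0.782 over the alternatives (limma). That 0 says little in settings that called few probe sets at all. The 287 called probe sets became 55 without a filter, 0 without both arrays low in 5′ signal (4683 at an unadjusted p under 0.05), and 0 to 44 when an array was left out. They became 608 with the replicate block, 1438 with the block of arrays low in 5′ signal. With either block 1 member probe set passed, the second of Psmd11 (adjusted p = 0.0469 with the replicate number as a block, where 3.67% of all tested probe sets passed). Deviations from group means of same-numbered arrays correlated at 0.61 and 0.58. These 2 values are not separate evidence, since with 2 CMP arrays the deviation of CMP 2 mirrors that of CMP 1. With only 2 such pairs and no label that ties them, the numbers were not taken as pairs. Genes without overlap, 12 of 45, became 37 without both arrays low in 5′ signal, where 85% of all tested genes did not overlap. With an array left out they became 14 to 29, against 38.5% to 67.7% of all tested genes. The median difference, not taken relative to all genes, ranged from -0.18 to 0.41 with an array left out.

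Signs turned as follows, none past the threshold. With array weights, Psmb8, Psmb9 and Psmb10 were at 0.17, 0.28 and 0.43. Psme3 was at 0.058 with the block of arrays low in 5′ signal and, without those arrays, at 0.10, with Psme1 at -0.0083. With gene means Psmg3 was at -0.38. With an array left out, the values ranged from -0.68 to 0.20 for Nfe2l1, -1.50 to 0.88 for Psmb8, -1.49 to 1.37 for Psmb9, -1.32 to 1.02 for Psmb10, -0.57 to 0.16 for Psmb5, -2.21 to 0.75 for Psmb7, -0.14 to 1.86 for Psmc3, -1.89 to 1.05 for Psmc5, -1.45 to 0.41 for Psmd10, -0.72 to 1.74 for Psme1, -0.21 to 0.21 for Psme3 and -0.12 to 0.67 for Psmg3. The cause was not tested. Averaging probe sets by gene leaves no probe sets to count. With CMP 1 or CMP 2 left out, the lone CMP array is assumed to vary like the CDP arrays.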
